A study of Drosophila melanogaster with 9 samples.

Results

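The genes *escargot* (*esg*, FBgn0287768) and *snail* (*sna*, FBgn0003448) were followed in the chromatin of *bam* testis and of S2 cells. Each was taken as a fixed interval of chromosome arm 2L in the dm3 build. The *esg* interval, chr2L:15325001-15345000, holds the gene at about 15333900 to 15336100, and the *sna* interval, chr2L:15470001-15487000, holds the gene at about 15477300 to 15479100. These are 2 of the 17872 genes in the RefSeq table used for names, and their intervals hold 74 of the 240732 tiles of 500 bp on the 6 chromosome arms, 40 for *esg* and 34 for *sna*.

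Both genes encode zinc-finger proteins of the Snail family, which bind DNA and mostly repress transcription. Snail sets up the mesoderm of the fly embryo and represses ectodermal genes there. Escargot is known for keeping stem and progenitor cells in their undifferentiated state, including intestinal stem cells and stem cells of the testis. A further family member, *worniu* (*wor*, FBgn0001983), which acts in neuroblasts, lies between them in the gene order of the RefSeq table, with 2 protein-coding genes between *esg* and *wor* and 1 between *wor* and *sna*. Its dm3 position was not used, so no stretch was assigned to it. Trimethylation of histone H3 at lysine 27 (H3K27me3) is laid down by Polycomb proteins over silent developmental genes. H3K4me3 marks the starts of active genes, H3K36me3 is deposited over transcribed bodies, and Pol II is the polymerase that reads protein-coding genes, often found waiting just downstream of a start site.

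The study compared a tissue rich in undifferentiated germ cells with a cell line. The testes were bam1/bam114-97, from crosses of stocks that carried bam1 over TM3 or bam114-97 over TM6B. Loss of *bam* stops spermatogonia from becoming spermatocytes. About 200 pairs of testes were pooled for each immunoprecipitation, and the tissue also holds somatic cells, so a read count cannot be given to one cell type. S2 cells are an established line derived from fly embryos, kept here without treatment. Chromatin of each was precipitated with antibodies against H3K4me3, H3K27me3, H3K36me3 and Pol II, and RNA was sequenced from S2 cells. Testis chromatin was fixed with formaldehyde and sonicated, whereas S2 cells were taken up in a digestion buffer, so the preparation and the sample cannot be told apart. Unmodified H3 libraries and testis RNA were not analysed here. The identity of the tissue could not be read from marker genes, because their dm3 positions were not used.

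The 8 ChIP-seq libraries held 1250028 to 3729366 reads and the RNA-seq library 7289715 reads once identical reads were limited to 3 copies. There was 1 library for each target and sample. Densities are reads per kb per 1000000 kept reads (RPM per kb). Intervals in brackets are exact 95% Poisson or binomial intervals, or approximate ones for ratios of ratios. With 1 library per target and sample, they cover counting error only. Amplified reads carried no molecular identifiers and may repeat a molecule, which would make the intervals too narrow. No difference between samples was tested.

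Both intervals were rich in H3K27me3 in both samples. Over the *esg* interval its density was 15.7 RPM per kb in *bam* testis (1168 reads) and 14.7 in S2 cells (817 reads). Of the 6015 windows of 20 kb on the arms, 3.69% had a higher H3K27me3 density than this interval in *bam* testis and 8.98% in S2 cells. The *sna* interval had 11.8 RPM per kb in *bam* testis (746 reads) and 14.0 in S2 cells (660 reads), where 10.4% and 11.8% of the 7077 windows of 17 kb were higher. The median 20-kb window held 7.67 and 7.46 RPM per kb, so both intervals lay in the upper part of the H3K27me3 range in both samples.

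Both intervals also exceeded their own surroundings in H3K27me3, the only mark for which this held in all 4 combinations of gene and sample. The ratio of the *esg* interval to the 50 kb on either side was 1.48 in *bam* testis (1.38 to 1.58) and 1.18 in S2 cells (1.10 to 1.28). For *sna* it was 1.33 (1.23 to 1.44) and 1.26 (1.16 to 1.37). H3K4me3 did not stand out from the flanks at *esg*, at 1.05 in *bam* testis (0.900 to 1.21) and 1.25 in S2 cells (0.821 to 1.85). Pol II at *esg* did, at 1.31 (1.10 to 1.54) and 1.61 (1.37 to 1.90). With the gene left out, Pol II was at 1.14 (0.945 to 1.38) in *bam* testis and 1.27 (1.05 to 1.54) in S2 cells. Of the 20-kb windows, 48.7% and 49.6% had more Pol II than the *esg* interval. H3K36me3 stood out in *bam* testis at 1.30 (1.13 to 1.496) but not in S2 cells, at 1.27 (0.914 to 1.73).

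**Figure D1:**
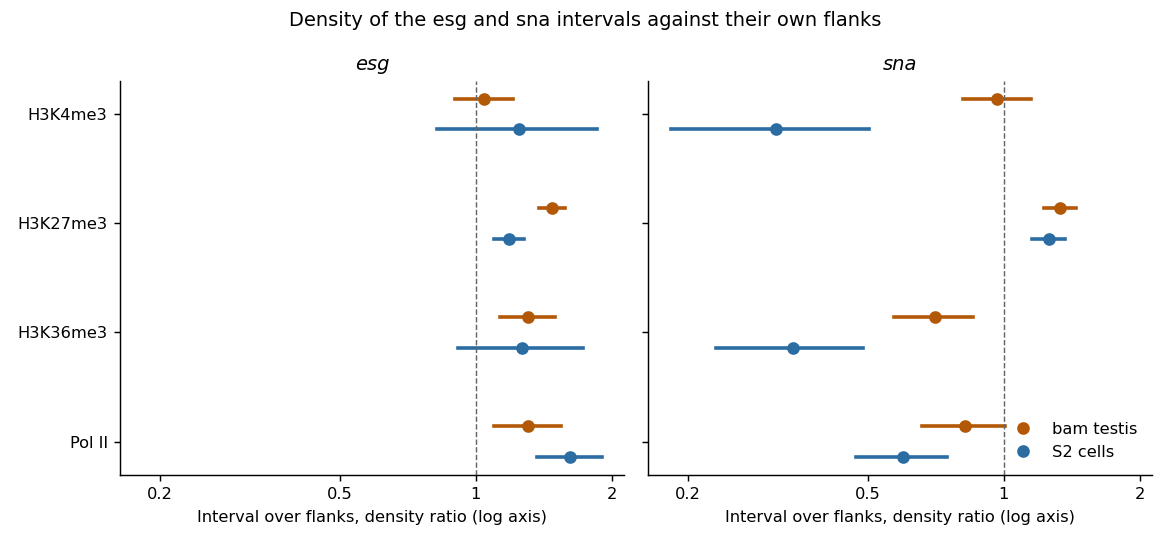
Density of each interval divided by that of its 2 flanks of 50 kb, for each target, on a log axis. Points are ratios within 1 library and bars are exact 95% counting intervals. Only H3K27me3 has all 4 points and bars right of 1, from 1.18 to 1.48.

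At *sna* the right flank held a stretch with S2 RNA, and the S2 ratios of the active marks and Pol II to the flanks were lower with it than without it. The tile chr2L:15499001-15499500, 19.9 kb from *sna*, had 163 RPM per kb of H3K4me3, 105 of Pol II and 50.8 of RNA in S2 cells. Against both flanks, the S2 ratio of *sna* was 0.314 (0.184 to 0.504) in H3K4me3, 0.342 (0.231 to 0.488) in H3K36me3 and 0.598 (0.472 to 0.749) in Pol II. With the stretch from 15499001 to 15505000 left out, a setting added after the values were seen, they were 0.748 (0.430 to 1.23), 0.773 (0.516 to 1.12) and 0.920 (0.721 to 1.16), so the interval was not resolved from the rest of its flanks. Against the left flank alone they were 0.767 (0.430 to 1.30), 1.06 (0.683 to 1.60) and 0.969 (0.748 to 1.24). The H3K27me3 ratio of *sna* stayed above 1 against the left flank too, at 1.16 in *bam* testis (1.06 to 1.26) and 1.13 in S2 cells (1.03 to 1.23). That flank held 8 tiles with no read in any ChIP-seq library, between 15447001 and 15452500. Such tiles lower its density and raise the ratios to it, and the left-flank ratios without them were not computed. Against both flanks without empty tiles, H3K27me3 was at 1.28 in *bam* testis (1.18 to 1.39) and 1.21 in S2 cells (1.11 to 1.31). With the stretch of S2 RNA left out it was at 1.28 (1.18 to 1.39) and 1.19 (1.09 to 1.29).

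**Figure D2:**
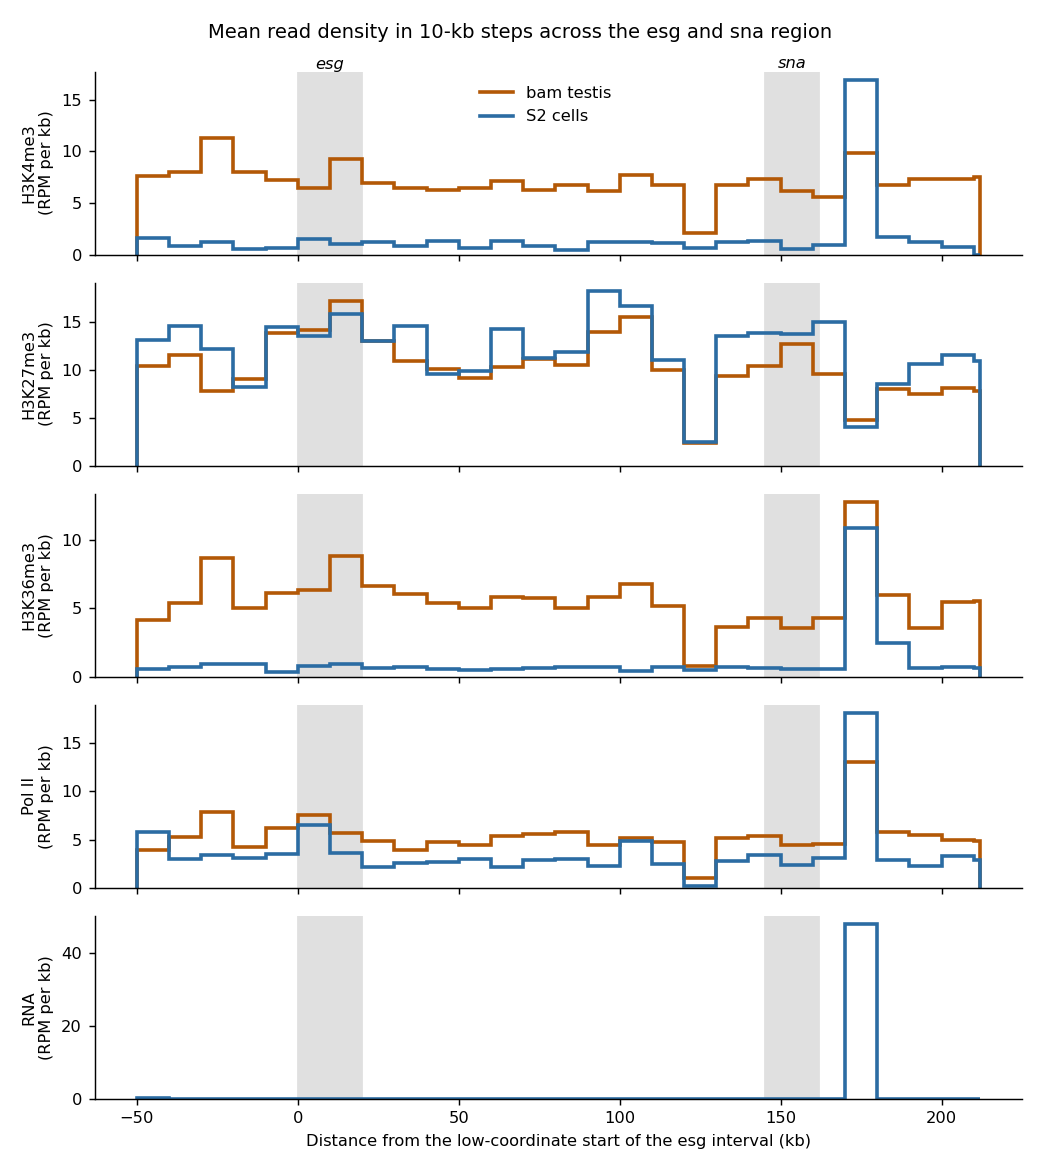
Mean density in RPM per kb over 10-kb steps (the last step is 2 kb) from 50 kb before the *esg* interval to 50 kb past the *sna* interval, against distance in kb; grey bands are the intervals. H3K27me3 in *bam* testis is highest over *esg*, at 17.2. In S2 cells H3K4me3, H3K36me3, Pol II and RNA are highest at 170 to 180 kb. At 120 to 130 kb every ChIP-seq target is lower than in the steps beside it in both samples. That step holds the 8 tiles with no read in any ChIP-seq library.

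The *esg* gene itself carried more H3K27me3 than the rest of its interval. Over the gene the density was 31.2 RPM per kb in *bam* testis (256 reads) and 27.1 in S2 cells (166 reads). These were 2.27 times (1.97 to 2.61) and 2.06 times (1.73 to 2.45) the density of the interval outside the gene. With the gene left out, the interval was still 1.30 times its flanks in *bam* testis (1.20 to 1.39), but 1.06 times in S2 cells (0.974 to 1.15). Away from the gene, the S2 excess over the flanks was not resolved from counting error.

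In tiles of 500 bp, the summit of H3K27me3 was the same in both samples. It was chr2L:15335001-15335500, inside *esg*, with 47.2 RPM per kb in *bam* testis (88 reads; 37.9 to 58.1) and 44.6 in S2 cells (62 reads; 34.2 to 57.2). In *bam* testis 132 tiles of the arms, 0.0548%, were as high, and in S2 cells 773 tiles, 0.321%. The ratio of *bam* testis to S2 cells in this tile was 1.06 (0.756 to 1.49).

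A tile was called enriched at 14 RPM per kb, since for 1000000 reads spread evenly over 120 Mb a count of 14 in 1 kb has a Poisson p under 0.05. In *bam* testis 19 of the 40 *esg* tiles passed for H3K27me3, or 47.5%, against 12.5% of all tiles and 22% of the flank tiles. In S2 cells 17 passed, or 42.5%, against 19.9% of all tiles and 33.5% of the flank tiles. Of these, 14 tiles passed in both samples, 73.7% of the testis tiles and 82.4% of the S2 tiles, beside 66.4% and 41.7% over all tiles of the arms. Tile by tile, the 2 H3K27me3 profiles of the *esg* interval had a Pearson r of 0.76 over 40 tiles, beside 0.47 over the 200 flank tiles and 0.65 over all tiles; tiles share mappability and base composition.

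At the ends of *esg* the H3K27me3 levels of the samples differed in opposite directions. In the 500 bp just inside the low-coordinate end, *bam* testis had 30.6 RPM per kb (57 reads) and S2 cells 13.7 (19 reads), a ratio of 2.24 (1.31 to 3.98). In the 500 bp just inside the high-coordinate end *bam* testis was lower, with 11.3 (21 reads) against 23.7 (33 reads), a ratio of 0.474 (0.261 to 0.845). Both kept their direction under the other settings, but for some of these the interval held 1. The low-end ratio was 1.70 (0.954 to 3.14) with the end moved 100 bp outward. The high-end ratio was 0.629 (0.362 to 1.08) without the shift of the reads and 0.565 (0.310 to 1.02) with the end moved 100 bp inward, and the ends are known to about 100 bp. Within a library, the low end over the high end was 2.71 in *bam* testis (1.62 to 4.71) and 0.576 in S2 cells (0.309 to 1.04). The windows were fixed on the study's 0 to 500 bp definition at both ends, because the strand of the genes was not taken from a dm3 annotation, and their comparison was chosen after the values were seen. At the depth of each library, a Poisson p under 0.05 in 500 bp needed 23 reads in *bam* testis, which 19.0% of all tiles reached, and 18 in S2 cells, which 23.8% reached. The low-end window passed in both samples and the high-end window in S2 cells alone. Without the shift the testis high-end window passed too (27 reads), and with the end 100 bp inward the S2 low-end window did not (17 reads).

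The longest unbroken run of enriched tiles also lay in different places. In S2 cells it ran over 7 tiles, from 15334501 to 15338000, with a mean of 26.6 RPM per kb, a first tile of 32.4 and a last tile of 17.3, so it covered most of the gene and reached past its high end. In *bam* testis the longest run had 5 tiles, from 15339501 to 15342000, beyond the gene, with a mean of 17.5, a first tile of 18.2 and a last tile of 19.3. The highest testis values stood in the 3 tiles from 15334001 to 15335500, inside *esg*, with 33.2, 38.6 and 47.2 RPM per kb. The same tiles held 12.2, 32.4 and 44.6 in S2 cells, where the first of them did not pass. In *bam* testis the tile just before these 3 also passed, with 14.5 RPM per kb. The testis run over the gene was thus only slightly shorter than the longest. In *bam* testis the side of the interval past the high end of *esg* had 15.8 RPM per kb against 11.7 on the other side, a ratio of 1.35 (1.18 to 1.54), and in S2 cells 13.8 against 12.5, a ratio of 1.11 (0.946 to 1.29).

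**Figure D3:**
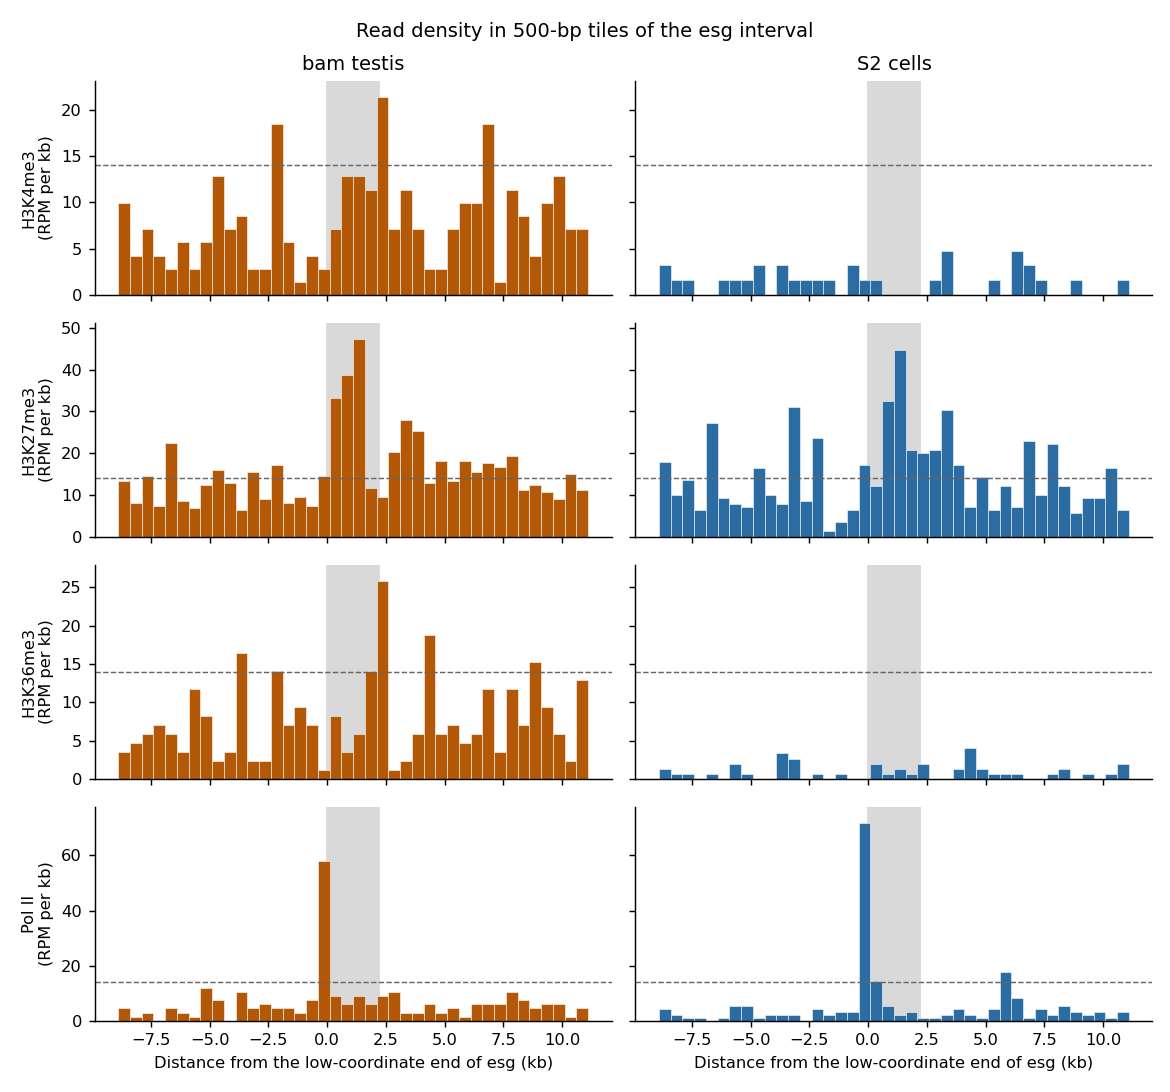
Density of each 500-bp tile of the *esg* interval in RPM per kb against distance in kb from the low-coordinate end of the gene, for *bam* testis (left) and S2 cells (right); grey marks the gene and the dashed line 14 RPM per kb. Pol II has 1 tall bar at the low end in both samples, 58.1 and 71.7, and H3K27me3 is highest inside the gene, at 47.2 and 44.6.

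A single strong Pol II peak stood at the low-coordinate end of *esg* in both samples. The tile chr2L:15333501-15334000 had 58.1 RPM per kb in *bam* testis (39 reads; 41.3 to 79.4) and 71.7 in S2 cells (69 reads; 55.8 to 90.7). No other *esg* tile came near it: the second-highest had 11.9 in *bam* testis and 17.7 in S2 cells, and the median tile 5.22 and 2.08. In S2 cells 3 of the 40 tiles passed the threshold for Pol II and in *bam* testis this tile alone did, 7.5% and 2.5% against 11.9% and 13.2% of all tiles. The ratio of *bam* testis to S2 cells in the peak tile was 0.811 (0.533 to 1.22), an interval that holds both a lower and a higher testis level. Only 916 tiles of the arms, 0.381%, had as much Pol II in *bam* testis, and 2703, 1.12%, in S2 cells.

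Further inside the gene Pol II was far lower. The next tile, chr2L:15334001-15334500, had 8.94 RPM per kb in *bam* testis and 14.5 in S2 cells, where it passed the threshold. Within 250 bp of the low end there were 40 Pol II reads in *bam* testis and 75 in S2 cells, where a Poisson p under 0.05 needed 11 and 14 reads, which 10.8% and 11.9% of all tiles reached. Between 500 and 1000 bp inside the gene there were 3 and 6 reads. The end held 13.3 times (4.25 to 67.4) and 12.5 times (5.48 to 35.1) as many reads as the body window of the same length. At the high-coordinate end the counts within 250 bp were 7 and 0, below the minimum.

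The reads of the peak came from many positions on both strands. The highest 50-bp bin of shifted reads was the first inside the low end in both libraries, with 13 and 22 reads. Within 500 bp, the testis library had 19 plus-strand and 27 minus-strand reads, each at its own position, with the median plus-strand 5′ end at -86 bp and the median minus-strand end at 79 bp, 165 bp apart. The S2 library had 45 plus-strand reads at 42 positions and 39 minus-strand reads at 30 positions, with medians of -1 and 81 bp. The plus-strand reads lay on the low side of the minus-strand reads in both samples, with a wider offset in *bam* testis.

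**Figure D4:**
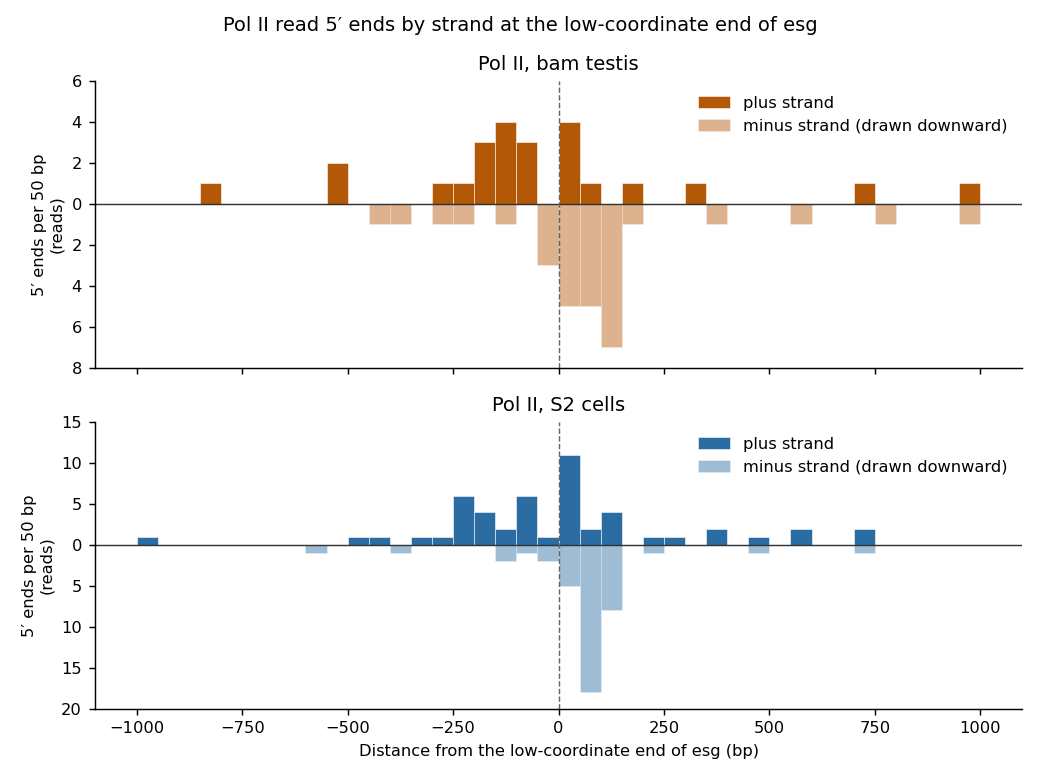
Number of Pol II read 5′ ends per 50 bp, plus strand upward and minus strand downward, against distance in bp from the low-coordinate end of *esg* (dashed line), before any shift. In *bam* testis plus-strand ends gather before the line and minus-strand ends after it, with medians of -86 and 79 bp; in S2 cells the plus-strand median is -1 bp.

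H3K4me3 and H3K36me3 were low where Pol II peaked. The tile of the peak had 2.84 RPM per kb of H3K4me3 in *bam* testis (2 reads) and 1.60 in S2 cells (1 read), and 1.17 and 0 of H3K36me3. It passed for H3K27me3 in both, with 14.5 and 17.3 RPM per kb, close to the threshold of 14. Of the 916 tiles with as much Pol II in *bam* testis, 228 had H3K4me3 below the threshold in the tile and its neighbours, and 5 of those passed for H3K27me3. Of the 2703 tiles in S2 cells the counts were 341 and 11. The median H3K4me3 of those tiles was 15.6 RPM per kb in *bam* testis and 56.0 in S2 cells, far above the *esg* values. In S2 cells 37 of the 2703 tiles also had no RNA read in the tile and its neighbours. Of these, 3 tiles combined that with low H3K4me3 and enriched H3K27me3, the combination found at *esg*. The *esg* tile is itself in each of these counts, since the Pol II cutoff was its own value. The combination was taken from that tile after its values were seen.

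H3K4me3 and H3K36me3 over *esg* were sparse in S2 cells and patchy in *bam* testis. In S2 cells the H3K4me3 density of the interval was 1.28 RPM per kb (32 reads) and that of H3K36me3 0.846 (51 reads), and none of the 40 tiles passed for either, where 7.46% and 16.1% of all tiles did. The *esg* gene held 1 H3K4me3 read in S2 cells. In *bam* testis the interval had 7.86 RPM per kb of H3K4me3 (221 reads) and 7.62 of H3K36me3 (260 reads). There 3 tiles passed for H3K4me3, 7.5% against 10.6% of all tiles and 8% of flank tiles, and 6 for H3K36me3, 15% against 16.3% and 5%. Neither share exceeded that of the genome.

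The highest testis tile was the same for both marks and lay at the high-coordinate end of *esg*. The tile chr2L:15336001-15336500 had 21.3 RPM per kb of H3K4me3 (15 reads; 11.9 to 35.2) and 25.8 of H3K36me3 (22 reads; 16.2 to 39.0). In S2 cells it had 0 and 1.99 RPM per kb, so the H3K36me3 ratio of *bam* testis to S2 cells was 13.0 (3.89 to 67.6). The tile was picked as the highest in *bam* testis, which tends to raise this ratio, and the counting interval does not cover that choice. The flanks of *esg* had an H3K36me3 ratio of 8.76, which lies inside that counting interval, so the tile was not resolved from them. Such tiles are not rare, since 4.48% of all tiles were as high for H3K4me3 and 5.60% for H3K36me3 in *bam* testis. The windows of the study at the gene ends did not pass for either mark at *esg* or *sna*. Within 500 bp inside the ends of *esg* there were 6 and 9 H3K4me3 reads in *bam* testis, where 11 were needed and 8.33% of all tiles reached them, and 1 and 0 in S2 cells, where 10 were needed and 7.15% reached them. From 500 to 1500 bp inside the ends there were 9 and 9 H3K36me3 reads in *bam* testis, where 22 were needed and 16.7% of all 1-kb tiles reached them, and 4 and 3 in S2 cells, where 35 were needed and 18.5% reached them.

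In S2 cells the highest H3K4me3 tile, chr2L:15337001-15337500, had 4.80 RPM per kb, and the highest H3K36me3 tile, chr2L:15338001-15338500, had 3.98. H3K4me3 and H3K27me3 passed together in 2 *esg* tiles in *bam* testis, at chr2L:15331501-15332000 and chr2L:15340501-15341000, both outside the gene, and in 0 tiles in S2 cells. In *bam* testis this was 5% of the *esg* tiles, beside 1.5% of its flank tiles. Over all tiles the shares with both were 0.612% in *bam* testis and 0.0569% in S2 cells. The 2 *esg* tiles were named after their values were seen. At a Poisson p under 0.001 no *esg* tile passed for H3K4me3.

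The *sna* gene lay in H3K27me3 as well, without the sharp summit seen at *esg*. Over the gene the density was 15.0 RPM per kb in *bam* testis (101 reads) and 16.2 in S2 cells (81 reads). Against the rest of the interval the gene was at 1.32 in *bam* testis (1.06 to 1.63) and 1.18 in S2 cells (0.924 to 1.49). In *bam* testis 11 of the 34 tiles passed, or 32.4%, beside 13.5% of flank tiles, and in S2 cells 14 passed, or 41.2%, beside 32%; both shares were above those of all tiles given for *esg*. In both samples 6 tiles passed, 54.5% of the testis tiles and 42.9% of the S2 tiles, beside the 66.4% and 41.7% of all tiles.

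The longest testis run of enriched tiles coincided with the *sna* gene. It had 5 tiles, from 15477001 to 15479500, with a mean of 17.2 RPM per kb, a first tile of 24.1 and a last of 16.1. In S2 cells the first of these tiles had 25.2 RPM per kb and the last 13.0, and the longest run lay before the gene, 4 tiles from 15474001 to 15476000 with a mean of 15.6, a first tile of 14.4 and a last of 15.8. The highest tiles differed too. In *bam* testis the highest was chr2L:15475001-15475500 with 24.7 RPM per kb (46 reads), where S2 cells had 15.8, and in S2 cells chr2L:15481001-15481500 with 26.6 (37 reads), where *bam* testis had 20.4. The 2 profiles had a Pearson r of 0.45 over 34 tiles, lower than the 0.72 of the flanks.

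No tile or end window of the *sna* gene passed for Pol II in either sample. The interval had 4.51 RPM per kb in *bam* testis (103 reads) and 2.57 in S2 cells (84 reads), and the gene 4.96 (12 reads) and 2.88 (10 reads). Within 250 bp of the low end there were 4 and 6 reads and of the high end 8 and 4, all below the minimum of 11 and 14. The tile over the low end held 2.98 and 6.23 RPM per kb and the tile over the high end 10.4 and 4.16. In *bam* testis 1 of the 34 tiles passed, chr2L:15484501-15485000 with 14.9 RPM per kb (10 reads), away from the gene and with 0 reads in S2 cells, whose own highest tile, chr2L:15480501-15481000, had 8.31.

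No *sna* tile passed for H3K4me3 or H3K36me3 in either sample. H3K4me3 was at 6.48 RPM per kb in *bam* testis (155 reads) and 0.847 in S2 cells (18 reads), and H3K36me3 at 3.83 (111 reads) and 0.625 (32 reads). In *bam* testis the highest H3K4me3 tile, chr2L:15476001-15476500, had 12.8 RPM per kb (9 reads), and the highest H3K36me3 tile, chr2L:15471001-15471500, had 10.5 (9 reads). Of the windows of 17 kb, 85.6% had more H3K36me3 than the *sna* interval in *bam* testis and 92.6% in S2 cells, and 60.2% and 87.8% had more H3K4me3.

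**Figure D5:**
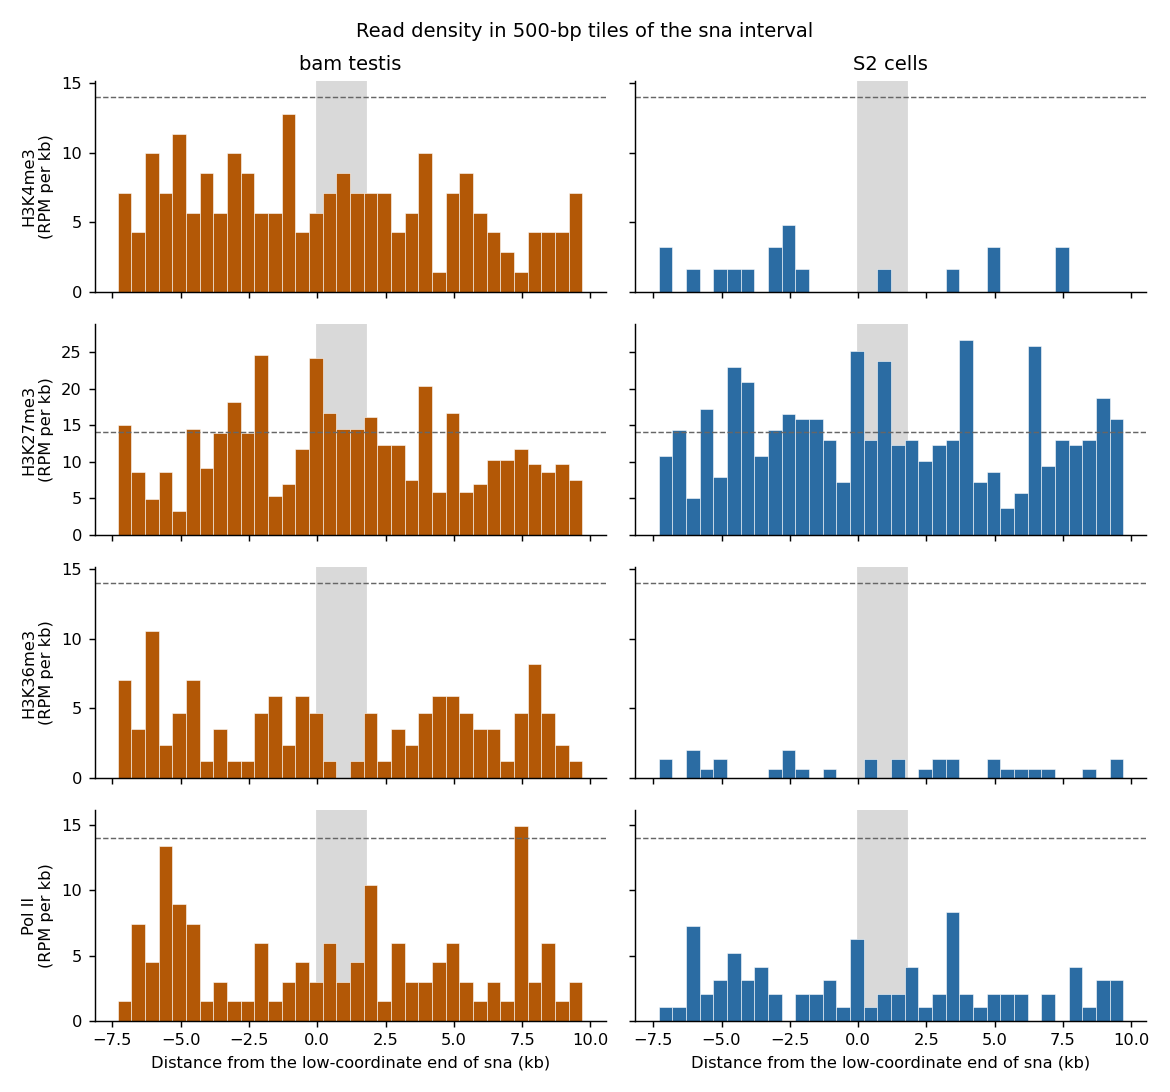
Density of each 500-bp tile of the *sna* interval in RPM per kb against distance in kb from the low-coordinate end of the gene, for *bam* testis (left) and S2 cells (right); grey marks the gene and the dashed line 14 RPM per kb. H3K27me3 passes the line in 11 and 14 tiles, and Pol II stays below 15 throughout.

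Within each library *esg* exceeded *sna* in Pol II and, in *bam* testis, in H3K36me3. The Pol II density of the *esg* gene was 2.66 times that of the *sna* gene in *bam* testis (1.36 to 5.58) and 4.75 times in S2 cells (2.40 to 10.4). H3K27me3 over the gene was also higher at *esg*, 2.07 times in *bam* testis (1.64 to 2.64) and 1.68 times in S2 cells (1.28 to 2.22). Over the whole intervals the S2 H3K27me3 ratio was 1.05 (0.948 to 1.17), so the S2 difference lay in the gene. H3K36me3 over the intervals was 1.99 times higher at *esg* in *bam* testis (1.59 to 2.51) and 1.35 times in S2 cells (0.854 to 2.18), and H3K4me3 1.21 times (0.983 to 1.498) and 1.51 times (0.823 to 2.86).

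No RNA read of S2 cells fell in either interval, with all copies counted as well. Per the methods, mRNA was isolated before sequencing, so transcripts outside that fraction were not assessed. For a count of 0, 3 reads correspond to 0.187 RPM per kb over the *esg* gene and 0.229 over the *sna* gene. The nearest tile with any RNA read lay 50.4 kb from *esg* and 18.4 kb from *sna*, with 1 read each. The nearest tile with 1 RPM per kb or more lay 58.4 kb from *esg*, with 3.57 RPM per kb (13 reads), and 19.9 kb from *sna*, with 50.8 (185 reads). Single tiles without an RNA read were common, at 61.2% of all tiles. The share of whole intervals of this length without a read was not computed.

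Both genes sat in a long stretch with next to no S2 RNA, from 15275501 to 15499000, whose ends were looked up after the values were seen. Its 447 tiles held 4 RNA reads. Its highest Pol II tile in both samples was the low end of *esg*, with the next at 16.4 RPM per kb in *bam* testis and 17.7 in S2 cells. Its highest testis H3K27me3 tile was the *esg* summit, which in S2 cells came second to 54.0 RPM per kb at chr2L:15424501-15425000. The highest testis H3K36me3 tile was the high end of *esg*, with the next at 24.6. H3K4me3 was different, with 61.1 RPM per kb in *bam* testis at chr2L:15298001-15298500, before the *esg* interval, and no S2 tile past 9.60.

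Between the samples, H3K27me3 differed little and the active marks differed most, by about as much in the flanks of *esg* as in its interval. Scaled to depth, the *bam* testis over S2 ratio of H3K27me3 was 1.07 at *esg* (0.974 to 1.17) and 0.842 at *sna* (0.758 to 0.937). For H3K4me3 it was 6.14 at *esg* (4.22 to 9.19) and 7.65 at *sna* (4.69 to 13.3). That of H3K36me3 was 9.0 (6.65 to 12.4) at *esg* and 6.13 (4.10 to 9.39) at *sna*. The flanks of *esg* had nearly the same ratios, 7.34 for H3K4me3 and 8.76 for H3K36me3. The median tile of the arms held 5.69 RPM per kb of H3K4me3 in *bam* testis and 1.60 in S2 cells. For H3K36me3 it held 4.69 and 1.33, so a typical tile held more reads of both marks in the testis libraries. The highest tiles went the other way. The 95th percentile of H3K4me3 was 19.9 RPM per kb in *bam* testis and 36.8 in S2 cells, and that of H3K36me3 26.96 and 47.1. The S2 reads of both marks were thus more concentrated in few tiles. Whether this accounts for the ratios at *esg* and *sna* was not tested.

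Set against the flanks of each library, the H3K4me3 and H3K36me3 differences at *esg* were no longer resolved. The ratio of the 2 interval-to-flank ratios was 0.836 (0.553 to 1.26) in H3K4me3, 1.03 (0.734 to 1.44) in H3K36me3 and 0.809 (0.642 to 1.02) in Pol II. For H3K27me3 it was 1.25 at *esg* (1.13 to 1.38), higher in *bam* testis, and 1.06 at *sna* (0.943 to 1.19). At *sna* it was 3.08 (1.86 to 5.10) in H3K4me3, 2.06 (1.37 to 3.09) in H3K36me3 and 1.37 (1.01 to 1.86) in Pol II. These counted the stretch of S2 RNA in the right flank, where testis tiles reached 37.3 RPM per kb of Pol II and 43.4 of H3K36me3. Without the stretch, the testis ratios of *sna* to its flanks were 1.02 (0.853 to 1.21), 0.840 (0.681 to 1.03) and 0.956 (0.768 to 1.18). The S2 ratios were 0.748, 0.773 and 0.920, and all of these intervals held 1. The ratio of the ratios was not computed without the stretch. Pol II scaled to depth was 1.30 at *esg* (1.06 to 1.60) and 1.76 at *sna* (1.31 to 2.37), and over the *esg* gene alone 0.964 (0.626 to 1.47).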

How the data were processed

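ChIP-seq reads of *bam* testis and S2 cells and RNA-seq reads of S2 cells were used, 9 libraries. Per the methods, the authors aligned reads to dm3 with ELAND, allowed up to 2 mismatches and retained reads with a unique position; that account is of 25-bp reads, and the 36-bp RNA reads have no separate one. The deposited files list 1 read per line with its position and strand, and these read counts were not normalized. The RNA file also holds an alignment score from the authors, which was not used. Reads with the same chromosome, 5′ end and strand were taken as identical and limited to 3. ChIP 5′ ends were moved 80 bp inward, toward the middle of a 160-bp fragment. Reads were counted in 500-bp tiles and in the intervals, with Python 3.11.15, numpy 2.4.6 and scipy 1.17.1, and plotted with pandas 2.3.3 and matplotlib 3.10.9. Counting and intervals were tested on simulated data.

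Tiles named in the text are the highest of each library in each interval, the ends of the longest enriched runs and the tiles over the gene ends. Tiles with both H3K4me3 and H3K27me3, the tile of the stretch beside *sna*, other tiles inside *esg*, the highest of the 447 tiles and those with RNA were chosen after their values were seen. The genes, windows and alternatives were chosen with earlier results of these data known. Alternatives were no shift, 1 copy or all copies of a read, other flanks, the gene with 1 kb on either side, other scalings, Poisson minimums and gene ends moved by 100 bp; dropping empty flank tiles, dropping the stretch beside *sna* and using the gene only were added after the data were seen. Gene names and their order came from RefSeq tables of assembly Release 6, whose coordinates were not used. The gene ends are known to about 100 bp. No sequence was printed, since none of the dm3 build was used.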

Additional observations from a re-analysis of the deposited data

How the results depend on the processing

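The results rest on 1 library each, so counting error is the only error given, and differences in preparation between *bam* testis and S2 cells cannot be told apart from the samples. No paired analysis was possible because each target had 1 library per sample. Of 449 values under another setting, 391 stayed within the counting interval of the reported ratio or density, within 1.5 times of a tile count, or on the same side of a window's minimum. None of the rest came from counting all copies, from scaling to the mean tile or from dropping empty flank tiles. Among the 391, 7 ratios, all of H3K4me3 to the flanks with a reported interval that holds 1, lay on the other side of 1. In a further 7 the interval came to hold 1, as for Pol II at *esg*, *bam* testis over S2, at 1.14 (0.837 to 1.55) over the gene with 1 kb on either side.

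Over the gene with 1 kb on either side, the ratios to the flanks at *esg* were 1.26 for H3K4me3, 2.10 for H3K27me3 and 2.74 for Pol II in *bam* testis, and in S2 cells 1.72 for H3K27me3 and 3.86 for Pol II, with H3K36me3 at 1.18 and H3K4me3 at 0.930, below 1. At *sna* they were 1.70 for H3K27me3 and 0.454 for H3K36me3 in *bam* testis and 0.0781 (0.00197 to 0.438) for H3K4me3 in S2 cells. On that span the *bam* testis over S2 ratio of H3K4me3 was 9.95 (4.02 to 31.8) at *esg* and 33.8 (5.71 to 1369) at *sna*. That of H3K27me3 at *sna* was 1.00 (0.814 to 1.24), so its direction was no longer resolved. With the gene only, the ratio of H3K4me3 was 29.3 (4.91 to 1193) at *esg* and 18.7 (3.00 to 772) at *sna*. Each gene held 1 H3K4me3 read in S2 cells, so the size of these ratios is not resolved. Pol II at *esg* was at 0.964 (0.626 to 1.47) and H3K36me3 at *sna* at 3.09 (0.786 to 14.4), so neither direction was resolved any longer.

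With the left flank only, Pol II of S2 cells at *esg* was at 1.35. At *sna* H3K27me3 was at 1.16, H3K36me3 at 0.871 and Pol II at 1.08 in *bam* testis. In S2 cells H3K4me3 was at 0.767, H3K27me3 at 1.13 and Pol II at 0.969. S2 H3K36me3 was at 1.06 (0.683 to 1.60), so its direction was no longer resolved. With the right flank only, Pol II of S2 cells at *esg* was at 2.01, H3K27me3 at *sna* at 1.57 in *bam* testis and 1.43 in S2 cells, and S2 H3K36me3 and Pol II at *sna* at 0.204 and 0.433. With flanks of 25 kb, *sna* had 1.67 for H3K27me3 in *bam* testis, and in S2 cells 1.54 in H3K27me3, 0.206 in H3K36me3 and 0.468 in Pol II. With the stretch of S2 RNA in the right flank left out, the S2 ratios of *sna* were 0.748 for H3K4me3, 0.773 for H3K36me3 and 0.920 for Pol II. The RNA ratio of *esg* could not be computed against the right flank, which held no read.

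Scaled to the flanks, the *bam* testis over S2 ratio at *esg* turned to 0.836 for H3K4me3 and 0.809 for Pol II and was 1.25 for H3K27me3 and 1.03 for H3K36me3. At *sna* it turned to 1.06 for H3K27me3 and was 3.08 for H3K4me3 and 2.06 for H3K36me3. All 3 counted the stretch of S2 RNA in the right flank.

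Tiles past the threshold changed most with a Poisson p under 0.001, reached in *bam* testis by 4.04% of all H3K4me3, 9.14% of H3K27me3, 8.63% of H3K36me3 and 5.05% of Pol II tiles and in S2 cells by 13.5% of H3K27me3 and 7.55% of Pol II tiles. At *esg* 0 tiles passed for H3K4me3 and 1 for H3K36me3 in *bam* testis, and 1 for Pol II in S2 cells, the peak at the low end. At *sna* 7 passed for H3K27me3 and 0 for Pol II in *bam* testis, and 8 for H3K27me3 in S2 cells. The single testis Pol II tile of *sna* was also lost, leaving 0, without the shift, with 1 copy of each read and at a Poisson p under 0.05, and without the shift *esg* had 2 Pol II tiles in *bam* testis. The cause of these changes was not tested. Of the windows at the gene ends, none changed its call for Pol II. Without the shift, H3K27me3 passed at the high end of *esg* in *bam* testis (27 reads) and at the low end of *sna* in S2 cells (20). With the end moved 100 bp outward, H3K4me3 passed at the high end of *esg* in *bam* testis (11 reads) and H3K27me3 at the low end of *sna* in S2 cells (25). With it moved 100 bp inward, S2 H3K27me3 no longer passed at the low end of *esg* (17 reads) or the high end of *sna* (17).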
